A study of Mus musculus with 24 samples.

Results

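The question put to the data was whether a Bruton's tyrosine kinase inhibitor (BTKi) acted on gene expression in the corpus callosum to a different extent in demyelinated and in healthy mice. For each gene the log2 change from vehicle to BTKi was taken in cuprizone mice and in naive mice, and the naive change was subtracted from the cuprizone change. A negative difference therefore means that BTKi lowered a gene more, or raised it less, in cuprizone than in naive mice. All 24 libraries of the series entered this contrast, and 15216 of 54446 genes in the table had a mean of at least 0.5 FPKM and were tested. FPKM is a count of sequenced fragments scaled to the length of the gene and to the total of the library.

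The libraries were bulk polyadenylated RNA of mouse corpus callosum in 4 groups. Naive mice with vehicle and naive mice with BTKi had 4 libraries each, and cuprizone mice with vehicle and with BTKi 8 libraries each. BTKi was given after disease had been induced, per the series' design text. The sources used here do not give strain, age, sex, compound, dose or length of treatment, or whether vehicle was the same in both states. Nothing in the labels ties each library to an animal of its own, so p-values cover only the spread between these samples, and part of that spread may be technical.

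Cuprizone is a copper chelator that kills oligodendrocytes, the myelinating cells of the central nervous system, and so strips myelin from the corpus callosum while microglia and astrocytes become reactive. BTK, a non-receptor tyrosine kinase found in B and myeloid cells, relays signals from the B cell receptor and Fc receptors to phospholipase C gamma. In the brain it is found mainly in microglia. Many genes described here are immediate early genes, whose transcription follows kinase signalling rapidly and without new protein synthesis, in many cell types.

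Total FPKM ran from 462521 to 496350, and from 14930 to 15435 genes reached 0.5 FPKM per library. The depth of the libraries, read from the spacing of low values, was at least 96.6% of the deepest in all but cuprizone BTKi 5 (86.3%). In 10 exact permutation tests of library measures, two-sided, BTKi against vehicle within each state, the smallest p was that of the genes at 0.5 FPKM in naive mice (14994 ± 62.4 with BTKi and 15150 ± 82.5 with vehicle, SD, n = 4 each, exact p = 0.0571, adjusted p = 0.46). The smallest p that 4 against 4 libraries allow is 0.0286, so a single naive measure could not pass after adjustment over the 10. The libraries held grey matter RNA as well: Slc17a7, the vesicular glutamate transporter of cortical neurons, averaged 361 FPKM in naive vehicle mice. Some libraries stood apart. Naive vehicle 2 was the highest library of the series in myelin, striatal and thalamic genes, and cuprizone vehicle 1, 4 and 7 were the lowest in choroid plexus genes. The count of genes called in the difference was 19 with all libraries, 11 without naive vehicle 2 and 7 without those 3 cuprizone vehicle libraries. All 11 and all 7 were among the 19.

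BTKi had a different effect in cuprizone and naive mice on 19 genes, among them immediate early genes, phosphatases that act on kinase signalling and transcription factors. Of these, 18 had a lower and 1 a higher BTKi effect in cuprizone than in naive mice (limma, Benjamini-Hochberg adjusted p under 0.05). That is 0.125% of the genes tested, 0.118% in the lower and 0.00657% in the higher direction. Across all genes there was no such lean to one side. At an unadjusted p under 0.05, 742 genes (4.88%) were lower and 740 genes (4.86%) higher, and the median difference over all genes was -0.00274. Because the naive groups have 4 libraries each, the median standard error of the difference was 0.101 on the log2 scale, against 0.058 for the BTKi effect in cuprizone and 0.0821 in naive mice. No called difference was smaller than 0.29 in size.

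The 19 genes were of several kinds. In 15 the estimate of the BTKi effect was above 0 in naive mice and below 0 in cuprizone mice. The effect itself was called in cuprizone mice alone for 7 of the 19, in naive mice alone for 6, in both states for 2 and in neither for 4. For comparison, BTKi changed 27 of all genes tested in cuprizone mice (0.177%) and 33 in naive mice (0.217%). The libraries of the naive groups did not overlap for 15 of the 19 genes, against 7.36% of all genes tested, and those of the cuprizone groups for 6, against 0.131%. As the difference is made of these same values, these counts describe the genes and are no separate test.

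Nr4a1, Arc and Junb were the clearest case of a BTKi effect found in cuprizone mice and not in naive mice. In each, the 8 cuprizone BTKi libraries lay below all the other 16 libraries, which occurred for 4 genes of all those tested, with 3 more lying above (7 in all, 0.0460%). Nr4a1 encodes an orphan nuclear receptor induced by neuronal activity and by immune receptor signalling, and is on chromosome 15 (plus strand) from 101254269 to 101274795 (GENCODE M21, GRCm38). Its level was 66.4, 57.0, 68.1 and 53.4 FPKM in naive vehicle and 63.2, 56.0, 57.0 and 57.0 FPKM in naive BTKi libraries. In cuprizone vehicle libraries it ran from 54.5 to 72.2 FPKM (median 62.0), and in cuprizone BTKi libraries from 26.8 to 40.2 FPKM (median 32.6). The other 3 groups overlapped, and the cuprizone BTKi libraries lay below them without overlap. The BTKi effect was -0.96 in cuprizone (adjusted p = 2.4e-08) and -0.06 in naive mice (adjusted p = 0.846), a difference of -0.90 (SE 0.13, 95% interval -1.16 to -0.63, adjusted p = 0.00187).

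Arc, an activity-regulated cytoskeletal protein of excitatory neurons that governs synaptic strength, is on chromosome 15 (minus strand) from 74669083 to 74672570. It was at 123, 106, 122 and 103 FPKM in naive vehicle and 127, 116, 117 and 111 FPKM in naive BTKi libraries. Cuprizone vehicle libraries ran from 101 to 160 FPKM (median 127) and cuprizone BTKi libraries from 48.6 to 91.0 FPKM (median 60.6). No cuprizone BTKi library reached the lowest of the others. The difference was -1.03 (SE 0.18, adjusted p = 0.0103), from a fall by 0.98 in cuprizone mice and an estimate of 0.05 in naive mice. Junb, which pairs with FOS proteins in the AP-1 factor, was at 51.8, 49.9, 52.4 and 40.6 FPKM in naive vehicle and 47.9, 41.3, 40.8 and 43.5 FPKM in naive BTKi libraries. It ran from 41.6 to 65.1 FPKM (median 49.0) in cuprizone vehicle and from 24.3 to 32.8 FPKM (median 27.7) in cuprizone BTKi libraries. Its difference of -0.70 (SE 0.14, adjusted p = 0.0305) was less firm: leaving out any single library of 11 moved the adjusted p above 0.05, to at most 0.101. In bulk tissue, fewer cells that express a gene and less of its RNA per cell cannot be told apart. The 14 markers of neurons in general had a median difference of -0.01, with 7 above and 7 below 0. None was called by limma. At an unadjusted p under 0.05, 2 were higher and 1 lower, against 4.86% and 4.88% of all genes.

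Trib1, Dusp6 and Dusp5 also fell in cuprizone mice. Trib1 encodes a pseudokinase that brings target proteins to a ubiquitin ligase. It was at 6.37, 5.29, 6.22 and 5.69 FPKM in naive vehicle, 6.36, 6.65, 6.47 and 6.02 FPKM in naive BTKi, 5.86 to 7.15 FPKM (median 6.66) in cuprizone vehicle and 3.71 to 5.65 FPKM (median 4.38) in cuprizone BTKi libraries. The cuprizone groups did not overlap, and the difference was -0.62 (SE 0.12, adjusted p = 0.0230). Dusp6 and Dusp5 encode phosphatases that switch off the kinase ERK, in the cytoplasm and in the nucleus. Dusp6 went from a mean of 28.9 ± 2.73 to 23.2 ± 2.02 FPKM (SD, n = 8 each) with BTKi in cuprizone mice, and stood at 23.4 ± 1.03 and 27.6 ± 1.83 FPKM (SD, n = 4 each) in naive vehicle and naive BTKi mice. Dusp5 went from 8.16 ± 0.845 to 6.20 ± 0.782 FPKM in cuprizone mice, against 6.47 ± 0.351 and 8.11 ± 0.825 FPKM in naive mice. For both phosphatases, the means of naive vehicle and cuprizone BTKi mice lay close together, as did those of naive BTKi and cuprizone vehicle mice. The fall in cuprizone mice was called for both (adjusted p = 0.0109 and 0.0172), the naive estimates of 0.23 and 0.30 were not (adjusted p = 0.216 and 0.203), and the differences were -0.54 and -0.67 (adjusted p = 0.0141 for each).

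**Figure D1:**
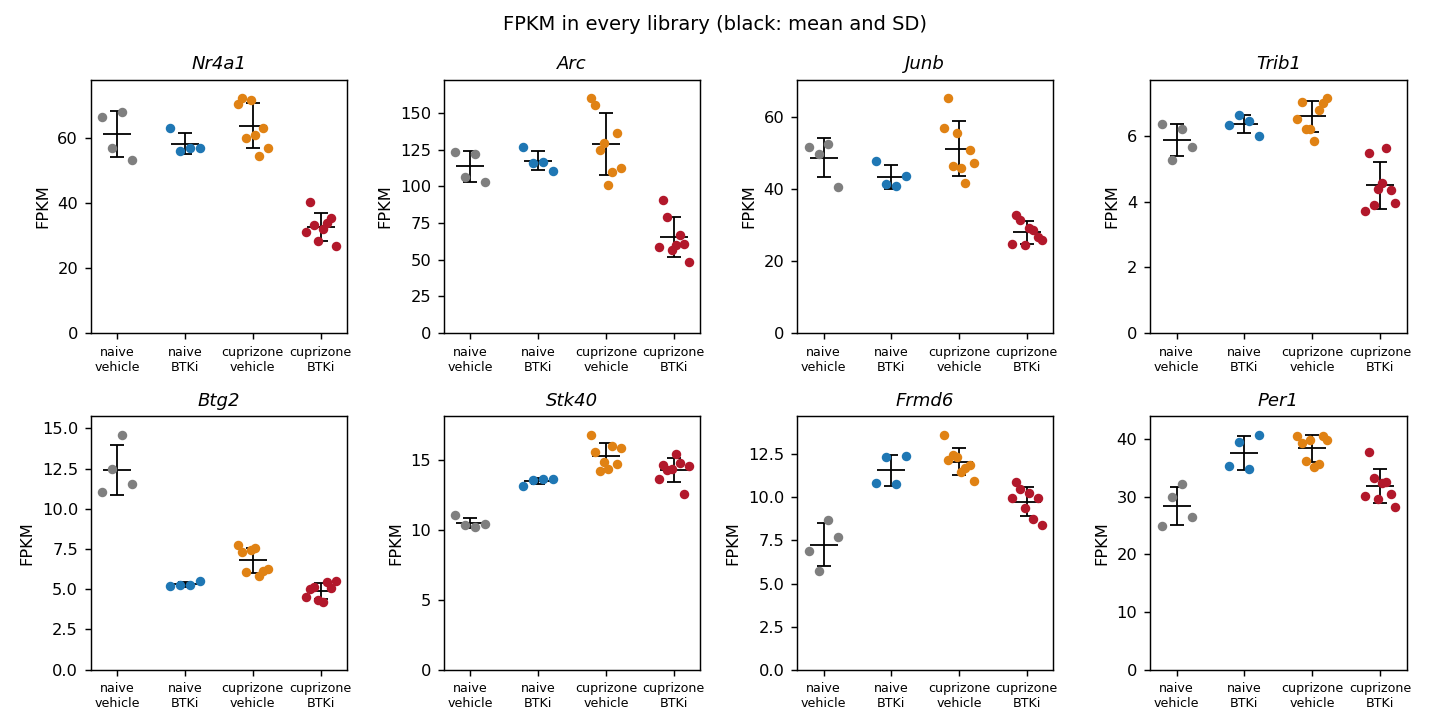
FPKM of 8 genes in every library, by group (naive vehicle and naive BTKi n = 4 each, cuprizone vehicle and cuprizone BTKi n = 8 each), on a linear axis from 0, with points for libraries and black bars for the mean and SD. For Nr4a1, Arc and Junb the cuprizone BTKi libraries lie below all others, and for Btg2 and Stk40 the naive vehicle libraries lie above or below all others.

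Btg2 was the single gene with a higher BTKi effect in cuprizone mice, and it fell in both states. It encodes an antiproliferative protein that recruits a deadenylase to messenger RNA and is itself an immediate early gene and a p53 target (minus strand of chromosome 1, from 134075170 to 134079120). Naive vehicle libraries had 11.0, 12.5, 14.6 and 11.6 FPKM, and naive BTKi libraries 5.18, 5.28, 5.25 and 5.49 FPKM. Cuprizone vehicle libraries ran from 5.84 to 7.76 FPKM (median 6.78) and cuprizone BTKi libraries from 4.21 to 5.49 FPKM (median 5.05). All 4 naive vehicle libraries were above every other library, and the BTKi libraries of both states overlapped. The fall was by 1.15 in naive (adjusted p = 1.09e-07) and by 0.43 in cuprizone mice (adjusted p = 0.00154), so the difference was 0.72 (SE 0.12, 95% interval 0.48 to 0.95, adjusted p = 0.00543).

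Frmd6, Stk40, Klf10 and Per1 rose with BTKi in naive mice. Frmd6, which encodes a FERM domain protein tied to Hippo signalling, gave the smallest p of the contrast and is on chromosome 12 (plus strand) from 70825514 to 70902234. Its levels were 6.90, 5.71, 8.66 and 7.72 FPKM in naive vehicle and 10.8, 12.3, 10.7 and 12.4 FPKM in naive BTKi libraries. They were 10.9 to 13.6 FPKM (median 12.0) in cuprizone vehicle and 8.39 to 10.9 FPKM (median 9.97) in cuprizone BTKi libraries. The groups did not overlap within either state, and BTKi moved them apart in opposite directions. Frmd6 rose by 0.65 in naive mice (adjusted p = 0.00158), the cuprizone estimate was -0.30 (adjusted p = 0.0586), and the difference was -0.95 (SE 0.11, 95% interval -1.18 to -0.72, adjusted p = 0.000155).

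Per1, a repressor of the circadian clock that is also induced by cAMP and glucocorticoids, rose in naive and fell in cuprizone mice. It was at 24.9, 29.9, 32.3 and 26.5 FPKM in naive vehicle and 35.3, 39.4, 34.8 and 40.6 FPKM in naive BTKi libraries. In cuprizone mice it went from 35.1 to 40.5 FPKM (median 39.6) under vehicle to 28.2 to 37.7 FPKM (median 31.4) under BTKi. The rise in naive mice was by 0.40 (adjusted p = 0.0332) and the fall in cuprizone mice by 0.27 (adjusted p = 0.0474). The difference was -0.67 (SE 0.10, adjusted p = 0.00187). Among all genes tested, Btg2 and Per1 were the 2 called in both states, 7.41% of those called in cuprizone and 6.06% of those called in naive mice.

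Stk40 encodes a protein related to the pseudokinase Trib1. It had 11.0, 10.3, 10.2 and 10.4 FPKM in naive vehicle and 13.2, 13.6, 13.6 and 13.6 FPKM in naive BTKi libraries. Cuprizone libraries ran from 14.2 to 16.8 FPKM (median 15.2) under vehicle and from 12.5 to 15.4 FPKM (median 14.5) under BTKi. Naive vehicle libraries lay below every other library. The rise in naive mice was called (0.35, adjusted p = 0.00324), the cuprizone estimate was -0.10 (adjusted p = 0.454), and the difference was -0.44 (SE 0.07, adjusted p = 0.00254). Klf10, a zinc finger transcription factor induced by TGF-beta, went from 9.39 ± 1.06 to 13.5 ± 1.10 FPKM in naive mice (SD, n = 4 each) and from 12.6 ± 1.44 to 10.1 ± 1.38 FPKM in cuprizone mice (SD, n = 8 each). Its difference was -0.81 (SE 0.13, adjusted p = 0.00548), with a called rise in naive mice (0.51, adjusted p = 0.0417) and an uncalled cuprizone estimate of -0.30 (adjusted p = 0.124). Plk3, a polo-like kinase of the stress response, was the mirror case in its calls only. Its fall in cuprizone mice was called (by 0.24, adjusted p = 0.0474), and its naive estimate of 0.30 was not (adjusted p = 0.0846), though larger in size. Its naive libraries did not overlap (7.32 to 8.42 FPKM with vehicle and 8.78 to 10.4 FPKM with BTKi), while its cuprizone groups did. The difference for Plk3 was -0.54 (adjusted p = 0.00543).

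The other 7 called genes had differences from -0.52 to -0.29 (adjusted p from 0.0155 to 0.0479). They were Phf13, a reader of histone methylation (-0.52), Midn, a nuclear protein that carries short-lived transcription factors to the proteasome (-0.43), Nab2, a corepressor of EGR factors (-0.42), Sntb2, a syntrophin of the dystrophin complex (-0.39), Hivep3, a zinc finger factor (-0.38), Tet3, which oxidises methylated cytosine (-0.38), and 1810055G02Rik (-0.29). Sntb2, Hivep3 and Tet3 rose in naive mice (by 0.41, 0.34 and 0.28), and their cuprizone estimates were 0.02, -0.03 and -0.10. Phf13, Midn, Nab2 and 1810055G02Rik were called in neither state (smallest adjusted p 0.0598), with naive estimates from 0.14 to 0.37 and cuprizone estimates from -0.19 to -0.15. Sntb2 libraries of naive vehicle mice (2.24, 2.30, 2.57 and 2.41 FPKM) lay below all others, which began at 3.05 FPKM.

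**Figure D2:**
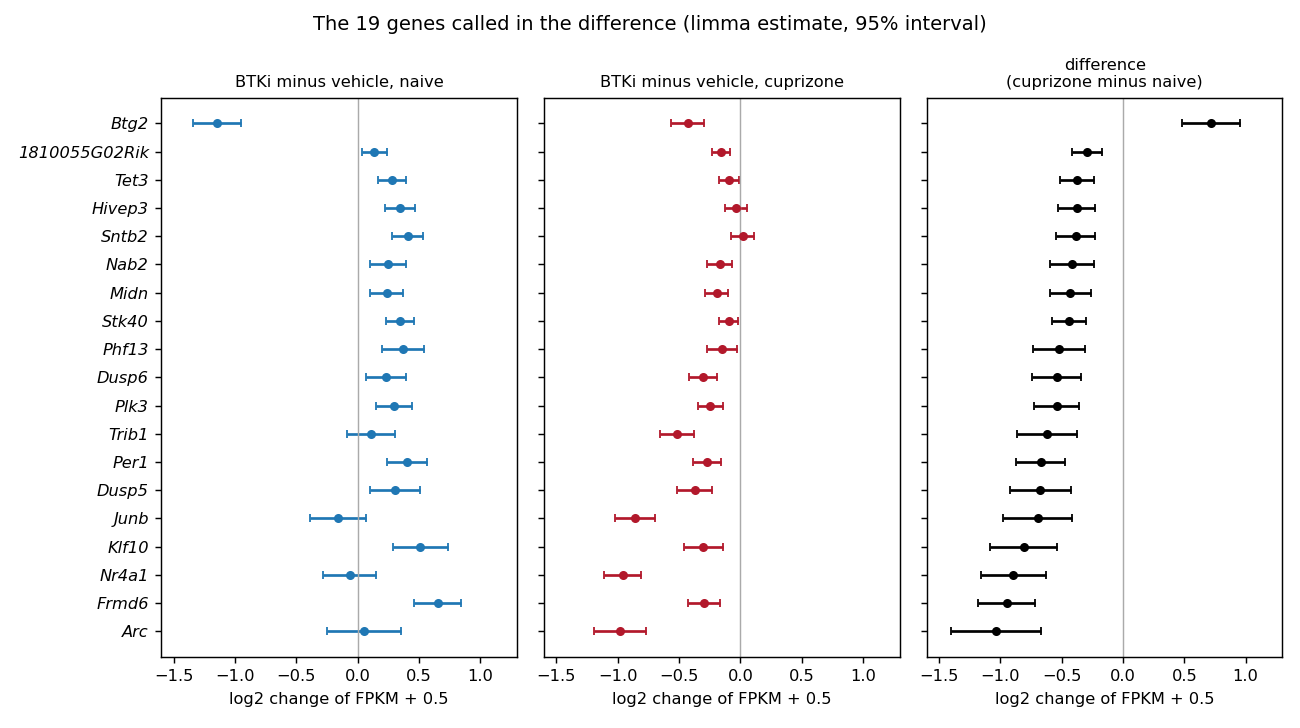
limma estimates with 95% intervals of the BTKi effect in naive mice, the BTKi effect in cuprizone mice and their difference for the 19 genes called, on the log2 scale of FPKM + 0.5. Estimates lie above 0 in naive mice for 16 genes and below 0 in cuprizone mice for 18, and Btg2 alone has a difference above 0.

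The calls were not equally firm. Frmd6, Nr4a1, Per1, Stk40, Btg2, Plk3, Klf10 and Arc stayed under an adjusted p of 0.05 whichever single library was left out, with a highest value of 0.0409 for Arc. Arc was not called without cuprizone vehicle 1, 4 and 7 together (-0.94, adjusted p = 0.0737). The other 11 genes lost their call without at least 1 single library. The call of Nab2 was lost in 19 of the 24 fits that left out a single library, and that of 1810055G02Rik in 18. The gene next to the threshold on the outer side was Spred2, an inhibitor of Ras to ERK signalling, with a difference of -0.45 (adjusted p = 0.0568).

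The same difference can be read by disease state, as the cuprizone change under BTKi minus that under vehicle. Of the 19 genes, 15 were called between cuprizone and naive mice under vehicle and 9 under BTKi, against 15.0% and 7.87% of all genes tested. The vehicle groups did not overlap for 13 of the 19 (8.77% of all genes) and the BTKi groups for 7 (7.17%). The difference is made of these same values too, so these counts describe the genes and are no separate test. Frmd6 was higher by 0.71 in cuprizone than naive mice under vehicle (adjusted p = 7.45e-07) and gave -0.24 under BTKi (adjusted p = 0.0689). Stk40 was higher by 0.52 under vehicle (adjusted p = 4.4e-08), with 0.08 under BTKi (adjusted p = 0.42). Nr4a1, Arc, Junb and Trib1 showed the reverse order: none was called under vehicle, where the estimates were 0.06 to 0.17, and all 4 were lower under BTKi, by 0.84, 0.87, 0.63 and 0.47.

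Over all genes, libraries of naive vehicle stood apart more often than those of any other group. For 204 genes (1.34%) all 4 naive vehicle libraries lay outside the range of the other 20, above in 130 and below in 74. The count was 38 (0.250%) for naive BTKi, 7 (0.0460%) for cuprizone BTKi and 0 (0%) for cuprizone vehicle. The groups differ in size, so these counts compare best between the naive groups. Among the 19 called genes Btg2, Stk40 and Sntb2 had naive vehicle apart, and Nr4a1, Arc and Junb cuprizone BTKi.

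Other genes were called for BTKi in naive mice alone and missed the threshold of the difference. Per2, the clock repressor related to Per1, had 6.18, 5.73, 6.42 and 6.51 FPKM in naive vehicle and 9.90, 9.11, 9.47 and 9.44 FPKM in naive BTKi libraries, a rise of 0.57 (adjusted p = 0.00317). Cuprizone libraries ran from 7.67 to 10.1 FPKM under vehicle and 8.47 to 11.7 FPKM under BTKi. Naive vehicle was below all other libraries, yet the difference of -0.44 missed the threshold (adjusted p = 0.143). Arrdc3, an arrestin domain protein that lowers surface receptors, fell by 0.55 in naive mice, from 13.7 ± 1.02 to 9.24 ± 0.605 FPKM (SD, n = 4 each). It was at 8.16 ± 1.03 and 8.22 ± 1.04 FPKM in cuprizone vehicle and cuprizone BTKi mice (SD, n = 8 each), with a difference of 0.56 (adjusted p = 0.0814). Hs3st1, a heparan sulfate sulfotransferase, fell by 0.50 in naive mice (adjusted p = 0.00158), had a cuprizone estimate of -0.18 (adjusted p = 0.203), and gave a difference of 0.32 (adjusted p = 0.215). For these 3 genes an effect called in one state and not in the other was therefore not shown to differ between the states.

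Genes called for BTKi in cuprizone mice alone included some with similar estimates in both. Zbtb16, a zinc finger factor induced by glucocorticoids, rose by 0.41 in cuprizone mice (adjusted p = 0.00096) and had 0.31 in naive mice (adjusted p = 0.137), a difference of 0.11 with a 95% interval from -0.11 to 0.32. Nostrin, which traffics nitric oxide synthase in endothelium, rose by 0.50 in cuprizone mice and had 0.40 in naive mice, a difference of 0.10 (95% interval -0.14 to 0.33). Its 8 cuprizone BTKi libraries, from 2.56 to 3.84 FPKM, lay above all others and its naive vehicle libraries, from 1.28 to 1.41 FPKM, below all others. Ier2, an immediate early gene, fell by 0.76 in cuprizone mice (adjusted p = 4.9e-06) with an uncalled naive estimate of -0.39, and its difference of -0.37 was not called (adjusted p = 0.41).

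Across the 15216 genes, the estimates of the BTKi effect in the 2 states, which share no library, were almost uncorrelated. Pearson's r was 0.0232 and Spearman's rho 0.0274. Restricting to 6677 genes with a mean of at least 10 FPKM gave r = 0.0216. These are descriptions across genes, which are not independent replicates. Nearly all of the genes were called in neither state, so the values cannot show how far the underlying effects agree. Of the 27 genes called in cuprizone mice, 16 had the same sign in naive mice, and of the 33 called in naive mice, 19 had the same sign in cuprizone mice.

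**Figure D3:**
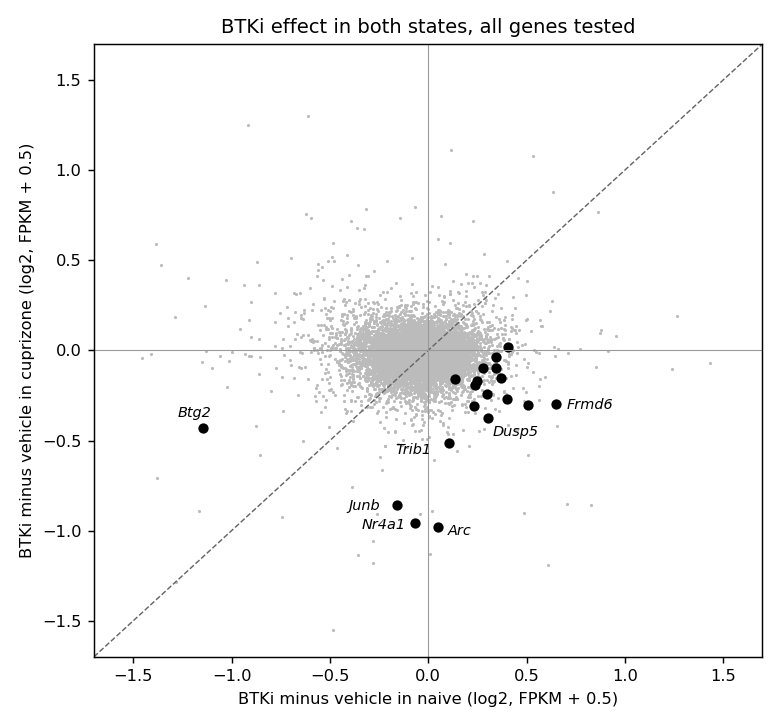
BTKi effect in cuprizone mice (vertical) against that in naive mice (horizontal) for all genes tested, on the log2 scale of FPKM + 0.5, with the 19 called genes in black and the dashed line marking equal effects. The axes end at 1.7 in each direction, which leaves out 5 genes, and 18 of the 19 called genes lie below the line.

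Promoter sequences of called genes are shown for Nr4a1 and Junb (lower in cuprizone BTKi mice), Per1 (opposite effects in both states), Btg2 (higher difference) and Frmd6 (smallest p). Each is the 250 bases before the first listed RefSeq start, on the gene's strand and written 5′ to 3′, from GRCm38.p6. Capitals mark TGACG, the core of the cAMP response element (CRE) bound by CREB family factors, or CGTCA, its reverse complement.
Nr4a1, plus strand, chr15:101266596-101266845: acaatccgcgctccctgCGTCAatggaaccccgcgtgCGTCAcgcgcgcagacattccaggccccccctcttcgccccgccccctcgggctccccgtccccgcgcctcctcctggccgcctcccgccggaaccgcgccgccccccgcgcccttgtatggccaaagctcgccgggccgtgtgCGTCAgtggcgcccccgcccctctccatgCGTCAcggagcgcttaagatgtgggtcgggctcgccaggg
Junb, minus strand, chr8:84978749-84978998: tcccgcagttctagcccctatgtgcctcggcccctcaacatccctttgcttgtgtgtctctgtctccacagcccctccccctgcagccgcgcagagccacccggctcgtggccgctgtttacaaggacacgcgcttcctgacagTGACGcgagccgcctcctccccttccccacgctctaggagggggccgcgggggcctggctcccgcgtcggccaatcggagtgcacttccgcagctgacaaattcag
Per1, plus strand, chr11:69098699-69098948: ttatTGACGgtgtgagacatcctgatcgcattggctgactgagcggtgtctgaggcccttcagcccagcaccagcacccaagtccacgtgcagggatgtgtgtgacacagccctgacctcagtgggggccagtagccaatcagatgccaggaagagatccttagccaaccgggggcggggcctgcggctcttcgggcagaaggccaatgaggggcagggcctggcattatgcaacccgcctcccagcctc
Btg2, minus strand, chr1:134079156-134079405: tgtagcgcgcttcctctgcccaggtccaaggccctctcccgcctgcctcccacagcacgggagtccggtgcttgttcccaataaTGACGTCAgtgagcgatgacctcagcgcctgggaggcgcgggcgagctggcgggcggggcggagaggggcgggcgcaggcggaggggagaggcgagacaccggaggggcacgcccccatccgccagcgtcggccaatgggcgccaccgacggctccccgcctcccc
Frmd6, plus strand, chr12:70825264-70825513: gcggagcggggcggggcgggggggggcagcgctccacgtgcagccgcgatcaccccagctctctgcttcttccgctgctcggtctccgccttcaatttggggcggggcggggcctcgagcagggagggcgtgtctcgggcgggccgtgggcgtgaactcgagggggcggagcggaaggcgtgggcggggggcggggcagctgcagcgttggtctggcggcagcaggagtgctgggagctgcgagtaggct

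Nr4a1 held 4 matches to TGACG on either strand, Btg2 2 that overlap as the palindrome TGACGTCA (the full CRE), Junb and Per1 1 each and Frmd6 0. Of the 19 called genes, 15 had a promoter entry in the RefSeq table, and Klf10, Arc, Trib1 and Sntb2 had none. For the counts that follow, a gene with several listed starts was searched before each of them, and a match before any start counted. TGACG was present in 10 of these 15 (66.7%) and in 29.8% of the 11250 tested genes with an entry. The 10 were Nr4a1, Per1, Stk40, Btg2, Plk3, Dusp5, Midn, Phf13, Junb and 1810055G02Rik. The full CRE, which contains TGACG on each strand, was in Btg2 alone, against 3.01% of tested genes. Other motifs searched on both strands were TGANTCA (AP-1, 0 of 15 against 5.40%), the CArG box of serum response factor (1 of 15, Dusp5, against 1.42%), GCGNGGGCG (EGR factors, 3 of 15 against 10.5%) and CACGTG (E-box, 3 of 15 against 9.64%). A match describes letters in these windows and was not tested as a site.

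Immediate early genes as a list, which includes 5 of the called genes, lay mostly below 0. Members of this and the following lists were chosen with earlier results of these data known. The list counts therefore describe the genes and are no separate test. Of the 27, 21 had a difference below 0, against 50.8% of all genes. The test called 4 lower (Nr4a1, Arc, Dusp6 and Junb), against 0.118% of all genes, and 1 higher (Btg2), against 0.00657%. The list's median difference was -0.36 against -0.00274 over all genes, and 16 of the 27 had an unadjusted p under 0.05 in the lower direction, against 4.88% of all genes, and 2 in the higher direction (Btg2 and Klf2), against 4.86%. In cuprizone mice BTKi lowered 11 of the 27 by the test, against 0.138% of all genes called lower there, and none rose. In naive mice 1 rose (Ier5) and 1 fell (Btg2), against 0.217% of all genes called there in either direction. The median naive estimate was -0.03.

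The list score, the mean of the members' centred log2 values, was 0.014, 0.085, 0.154 and 0.0344 in naive vehicle and 0.0098, -0.0126, 0.0152 and 0.0706 in naive BTKi libraries. It ran from 0.05 to 0.26 in cuprizone vehicle and from -0.34 to -0.02 in cuprizone BTKi libraries, so the cuprizone groups did not overlap. Fos, the partner of Jun in AP-1, fell by 0.54 in cuprizone mice (adjusted p = 0.00171) with a naive estimate of -0.11, and its difference of -0.43 was not called (adjusted p = 0.344). Csrnp1, a nuclear protein induced by AXIN1, fell by 0.45 in cuprizone mice with a naive estimate of 0.10 and a difference of -0.55 (adjusted p = 0.143). The members were not alike: Jun, Klf4, Fosb and Nr4a2 had differences between -0.11 and 0.17, and those of Npas4 and Apold1 were 0.28 and 0.29. Klf2, a zinc finger factor of endothelium and immune cells, had 0.65 (adjusted p = 0.19), from an estimate of -0.52 in naive and 0.13 in cuprizone mice. The 15 late activity genes of neurons had a median of -0.08, with 7 above and 8 below 0 and none called. At an unadjusted p below 0.05, 3 were higher (Inhba, Ptgs2 and Tac1) and 2 lower (Bdnf and Vgf), against 4.86% and 4.88% of all genes.

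**Figure D4:**
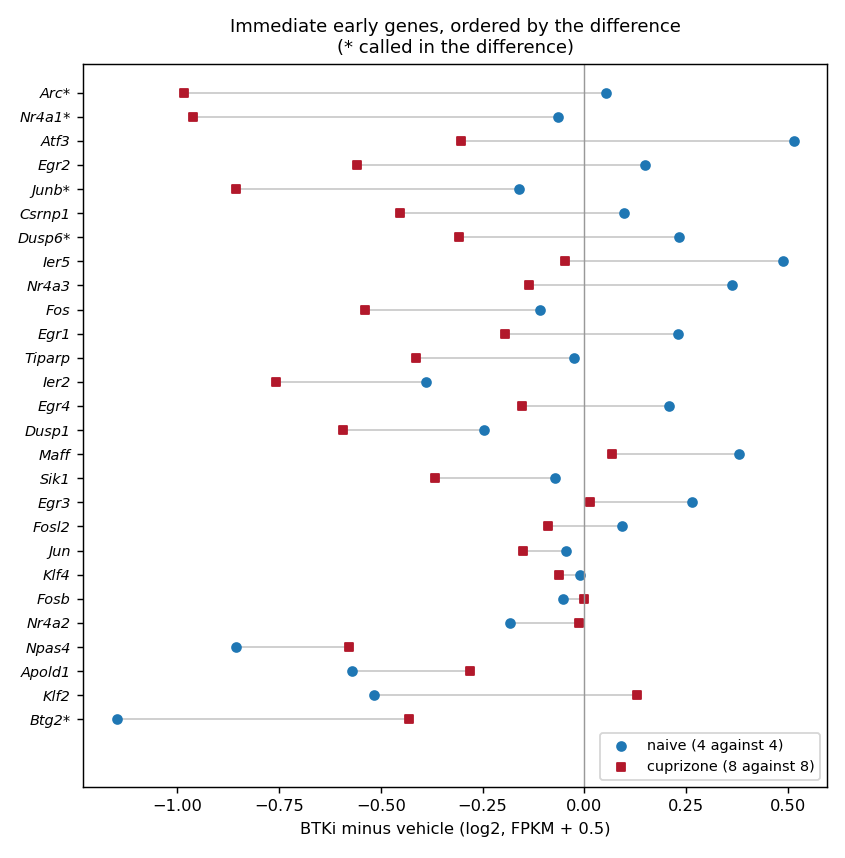
BTKi effect in naive mice (circles) and in cuprizone mice (squares) for 27 immediate early genes, on the log2 scale of FPKM + 0.5, ordered by the difference, with asterisks on the 5 called genes. In 21 genes the cuprizone point lies left of the naive point.

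Genes of the drug's target pathway showed no called difference. Btk itself was low, at 0.356, 0.351, 0.356 and 0.272 FPKM in naive vehicle and 0.367, 0.295, 0.256 and 0.467 FPKM in naive BTKi libraries. It ran from 0.688 to 1.69 FPKM (median 0.838) in cuprizone vehicle and from 0.535 to 1.16 FPKM (median 0.726) in cuprizone BTKi libraries. The naive groups overlapped, as did the cuprizone groups, which lay above them. The difference was -0.21 (95% interval -0.66 to 0.24, adjusted p = 0.779), and so near the pseudocount a change is understated. Of 15 tested genes of Btk and its cascade (kinases Lyn and Syk, adaptor Blnk, effector Plcg2 and others) 7 were above and 8 below 0, with a median of -0.01. None was called, and 1 (Prkcd, higher) had an unadjusted p under 0.05. Prkcd was at 130 FPKM in naive vehicle 2 and at 16.1, 21.6 and 25.3 FPKM in the other naive vehicle libraries. The 7 Fc receptor genes had a median of -0.04, with none under either threshold.

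Markers of microglia behaved likewise. The medians were -0.06 for 14 homeostatic genes, -0.03 for 23 disease-associated genes and -0.08 for 11 complement genes. No gene was called by limma, and at an unadjusted p under 0.05 1 complement gene (C1ra) was lower. Gpnmb, a glycoprotein of lipid-laden phagocytes, had a wide interval, from -1.43 to 0.47 around -0.48. The medians of these lists changed sign without cuprizone vehicle 8, to 0.04, 0.12 and 0.03, as did that of the Fc receptor genes (0.09) and that of the Btk cascade (0.05). The same holds for reactive astrocyte genes, whose median was -0.02 with all libraries and 0.07 without naive vehicle 1.

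Interferon response genes lay lower in the difference, with none called. All 22 tested genes had an estimate below 0 for BTKi in cuprizone mice, against 60.5% of all genes. For 19 the difference was below 0, against 50.8% of all genes, with a median difference of -0.37. At an unadjusted p under 0.05, 5 were lower in the difference and 0 higher, against 4.88% and 4.86% of all genes. The interferon score was highest in cuprizone vehicle 5 and 8 (1.10 each) and ran from 0.05 to 0.76 in the other cuprizone vehicle and from -0.01 to 0.65 in cuprizone BTKi libraries. The same pair was highest of all libraries in disease-associated microglia (1.26 and 1.64), Fc receptor (0.99 and 1.37) and MHC class I scores (0.77 and 0.89), whose part in the interferon values was not tested. The interferon median was -0.28 without cuprizone vehicle 5 and -0.25 without cuprizone vehicle 8, with 4 genes lower at an unadjusted p below 0.05 each time. That number was 2 without naive vehicle 2, and 9 without cuprizone vehicle 1, 4 and 7. Ifit1, an RNA-binding antiviral protein, was at 0.984, 0.871, 0.882 and 1.38 FPKM in naive vehicle and 0.929, 0.886, 1.35 and 1.07 FPKM in naive BTKi libraries. It ran from 3.00 to 7.24 FPKM (median 4.30) in cuprizone vehicle and from 2.01 to 3.75 FPKM (median 2.98) in cuprizone BTKi libraries. The cuprizone groups overlapped, and the difference was -0.64 (95% interval -1.11 to -0.16, adjusted p = 0.386). Oasl2, of the oligoadenylate synthase family, had -0.61 (adjusted p = 0.445). The 10 genes of MHC class I presentation had a median of -0.18, with 9 below 0, none called and 1 lower at p under 0.05 before adjustment.

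Oligodendrocyte genes lay higher in the difference, again with none called. All 25 genes of mature oligodendrocytes and myelin had a difference above 0 (median 0.51), and 11 had an unadjusted p under 0.05, against 4.86% of all genes. Without naive vehicle 2 all 25 were still above 0, with a median of 0.38, and 3 had an unadjusted p under 0.05. With all libraries, naive vehicle 2 included, the naive part was the larger. All 25 naive estimates were below 0 (median -0.29), against 56.2% of all genes. In cuprizone mice 24 of the 25 estimates were above 0 (median 0.18), while 60.5% of all genes lay below 0. Oligodendrocyte precursor genes (12) and newly formed oligodendrocyte genes (10) had medians of 0.19 each, with no call. At an unadjusted p under 0.05, 4 and 2 genes were higher and 0 and 1 lower, against 4.86% and 4.88% of all genes. These values include naive vehicle 2, the highest library of both scores (0.166 and 0.404). Cacng4 was at 22.9 FPKM there and at 12.6, 14.4 and 13.2 FPKM in the other naive vehicle libraries. Olig2 was instead highest in naive vehicle 1 (15.8 FPKM, against 13.8 FPKM in naive vehicle 2). Tcf7l2, with the highest difference of the newly formed list, is also in the thalamic list.

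Marker lists of some neighbouring regions also lay higher in the difference, while those of cortex and hippocampus did not share this lean. Cortical layer genes (11) had a median of -0.17, with 4 above and 7 below 0. At an unadjusted p under 0.05, 0 of them were higher and 2 lower. Hippocampal genes (10) had a median of 0.01, with 6 above and 4 below 0, and 1 higher and 1 lower at that p. No gene of either list was called. The myelin score was 0.77, 1.28, 0.76 and 0.80 in naive vehicle libraries and 0.55 to 0.59 in naive BTKi libraries. In the same order of naive vehicle libraries the striatal score ran from 0.01 to 1.53 and the thalamic score from -0.43 to 1.45, both highest in naive vehicle 2. Against this, naive BTKi libraries had striatal scores from -0.04 to 0.64 and thalamic scores from -0.27 to -0.04. All 10 striatal and all 8 thalamic and habenular genes had a difference above 0 (medians 0.60 and 0.77). None was called, and 3 and 2 were higher at an unadjusted p under 0.05, against 4.86% of all genes. Without naive vehicle 2 the medians were 0.34 and 0.43, with no gene of either list under that p. Septal genes (6, median 0.77) and ependymal genes (11, median 0.37) lay higher too, with none called and 4 and 1 under an unadjusted p of 0.05, and had medians of 0.51 and 0.21 without naive vehicle 2. Choroid plexus genes, markers of the epithelium that makes cerebrospinal fluid, had the highest median (1.02, 12 of 12 above 0), with scores from -2.27 to 0.73 in cuprizone vehicle and from -0.66 to 0.58 in cuprizone BTKi libraries. That median was 0.15 without cuprizone vehicle 1, 4 and 7, whose scores were -1.85, -2.27 and -2.24. None of the 12 had an unadjusted p under 0.05 with all libraries. Ttr, the transthyretin of that epithelium, ran from 26.0 to 1469.9 FPKM in cuprizone vehicle libraries, and its difference of 1.91 had an interval from -0.58 to 4.40. The part of these regional markers in the myelin result was not tested. With a choroid plexus and a striatal score as covariates 11 genes were called in the difference, all among the 19, with differences of -0.84 for Nr4a1, -1.02 for Arc, 0.77 for Btg2 and -0.89 for Frmd6.

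**Figure D5:**
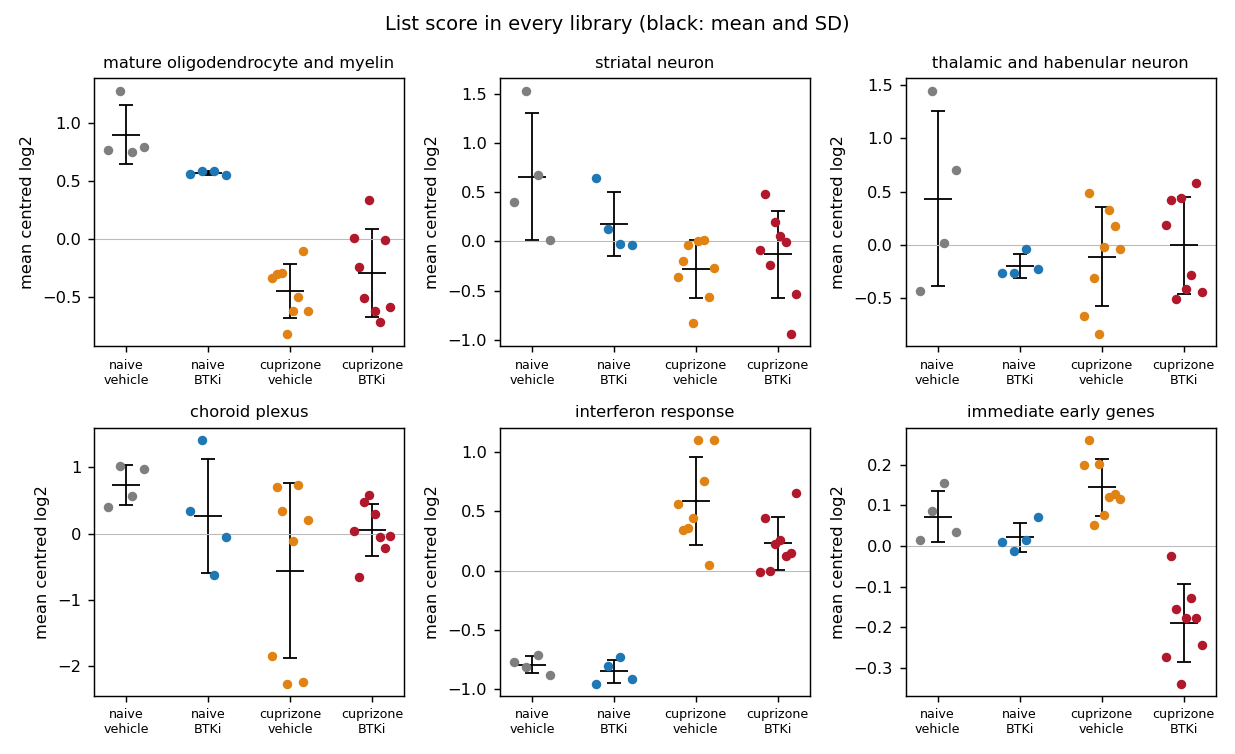
Score of 6 gene lists in every library (mean of centred log2 values of FPKM + 0.5), by group, with points for libraries and black bars for the mean and SD. Naive vehicle 2 is highest in the myelin, striatal and thalamic panels, 3 cuprizone vehicle libraries lie near -2 in the choroid plexus panel, and the cuprizone groups do not overlap in the immediate early panel.

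Clock and glucocorticoid-induced genes, lists that both contain Per1, were mixed. Of 20 clock genes, 14 had a difference below 0 (median -0.07). The 1 called was Per1, lower, against 0.118% of all genes called lower. At an unadjusted p under 0.05, 7 were lower and 2 higher, against 4.88% and 4.86% of all genes. Cry2, a repressor that pairs with the PER proteins, had -0.23 (adjusted p = 0.204). The core activators Clock and Arntl had 0.13 and -0.11, and the output factors Dbp, Tef and Hlf lay between -0.07 and 0.04. Of 19 glucocorticoid-induced genes, 14 had a difference above 0 (median 0.09), and Per1 was again the only call. Fkbp5 and Tsc22d3, standard markers of glucocorticoid action, had -0.09 and 0.07. Genes of cholesterol synthesis (21, median -0.08), the integrated stress response (17, median -0.07) and astrocytes in general (13, median 0.05) held no called gene. At an unadjusted p under 0.05, 4 cholesterol genes were lower, against 4.88% of all genes. The last pair of lists had 1 gene each at that p (Atf3, lower, and Slc4a4, higher). Reactive astrocyte genes had none. Atf3, a stress-induced factor, had the largest estimate of the stress list at -0.82 (adjusted p = 0.215).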

How the data were processed

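The 24 libraries were made from polyadenylated RNA with the Qiagen RNeasy Micro and TruSeq stranded mRNA kits, per the labels' protocols. The authors deposited a table of FPKM values, a unit taken from the table's name, for 54446 versioned Ensembl genes. The sources used here do not name the aligner, counter, genome build or annotation behind it. No column belonged to another sample. FPKM is relative to a library's total, so tests made for counts were not used. Of 106817 low values in 5675 genes with 1 transcript, 62.7% lay within 0.1 of a whole multiple of a fragment (20.0% by even spacing), which gave relative depth only.

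Genes with a mean of at least 0.5 FPKM were kept, and log2(FPKM + 0.5) was the response. The limma package (3.58.1, R 4.3.3) fitted the 4 groups together without covariates, moderated variances with a mean trend, and adjusted p by Benjamini-Hochberg for each contrast separately (threshold 0.05). All changes are on that scale, which understates changes of low genes. The fit was tested on simulated data, where the share of false calls stayed under the threshold on average over the simulations. The simulated noise was independent between genes and of the same spread in all groups. It therefore did not cover libraries that stand apart in many genes together, as some did here. Replicates were compared in 68 pairs within groups (SD of their log2 differences 0.208 to 0.335), and none were identical. Alternatives covered pseudocount, filter, scaling, variance model, weights, covariates, the block and each library left out.

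Gene lists, members and tests were chosen with earlier results of these data known. Named genes were the 20 with the smallest p in the difference, up to 15 called for BTKi in each state, the 3 with the smallest p in each list described, Btk, and the 5 highest and 5 lowest differences at a mean of at least 10 FPKM, with further list members named after their values were seen. IDs were matched to symbols for 54409 genes, and 53229 of them, version included, are in GENCODE M21. Promoters are RefSeq's on GRCm38.p6. Tables and plots used Python 3.11.15, pandas 2.3.3, numpy 2.4.6 and matplotlib 3.10.9.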

Additional observations from a re-analysis of the deposited data

Results flagged for a closer look

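The difference of the BTKi effects between cuprizone and naive mice passed an adjusted p of 0.05 (limma) for 19 genes, each of which was marked for a closer look because its effect differed between the states. The log2 differences were -0.948 for Frmd6, -0.895 for Nr4a1, -0.673 for Per1, -0.442 for Stk40, 0.716 for Btg2, -0.542 for Plk3, -0.811 for Klf10, -1.03 for Arc, -0.541 for Dusp6, -0.675 for Dusp5, -0.375 for Tet3, -0.429 for Midn, -0.623 for Trib1, -0.378 for Hivep3, -0.524 for Phf13, -0.696 for Junb, -0.388 for Sntb2, -0.295 for 1810055G02Rik and -0.418 for Nab2.

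Among 432 groups of libraries of the named genes, 17 held a library far from the rest, where chance marks about 1 in 20 groups. The value given is the gap to the nearest library as a share of the group's range. In naive groups these were Nr4a1 (0.848) and Stk40 (0.886) in naive BTKi 1, Prkch (0.935) and Gja1 (0.865) in the same library, Mertk (0.829) in naive BTKi 2, Fam214a (0.941) in naive BTKi 3, Igf1 (0.871) in naive vehicle 1, Fcgrt (0.858) in naive vehicle 2, Dusp6 (0.970) in naive vehicle 3 and Btk (0.942) in naive vehicle 4. In cuprizone groups they were Tet3 (0.528), Gpnmb (0.595) and Fcrls (0.712) in cuprizone BTKi 8, Arrdc3 (0.539) and Fos (0.628) in cuprizone BTKi 4, Ccdc153 (0.678) in cuprizone vehicle 4 and Mt1 (0.569) in cuprizone vehicle 6.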

How the results depend on the processing

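The count of genes called in the difference was 19. It was between 17 and 20 with a pseudocount of 0.1 or 1, no filter, a filter at 2 FPKM, median ratio or quantile scaling, other variance models and weights per group, and 28 with weights per library. It fell to 11 with choroid plexus and striatal scores as covariates, and to 9 with the replicate number as a block. The numbers were not shown to pair the samples: same-numbered libraries correlated from -0.274 to 0.324 over 12 pairs, 3 above 0.1, and 3 had their best match in their own number. After the data were seen, 2 more settings were added: without the 3 cuprizone vehicle libraries lowest in choroid plexus genes it was 7, and with a striatal covariate and naive vehicle 2 left out it was 10. Leaving out single libraries gave 8 (without naive BTKi 4) to 23, with 11 or 12 without naive BTKi 3, naive vehicle 2 or naive vehicle 4. For BTKi in cuprizone mice (27) the count was 16 with no filter, 15 with both covariates, 11 without the 3 libraries, and 14 (without cuprizone vehicle 2) to 34 over single libraries, with 16 or 17 without cuprizone BTKi 1, 3, 7 or 8 or cuprizone vehicle 4. For BTKi in naive mice (33) it was 21 with no filter, 145 with weights per library, 13 with both covariates, 19 without the 3 libraries, 10 with naive vehicle 2 left out and the striatal covariate together, and 7 (without naive BTKi 4) to 41 over single libraries, with 8, 11 and 21 without naive BTKi 3, naive vehicle 2 and naive BTKi 1. Cuprizone against naive under vehicle (2288) gave 1388 with both covariates, 1306 with naive vehicle 2 left out and the striatal covariate together, and 1824 (without naive vehicle 2) to 2390 over single libraries. Under BTKi (1198) every setting stayed within 1.5 times, with 861 to 1294 over single libraries. The cause of these shifts was not tested.

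The differences of the 19 called genes kept their sign in all 38 settings. Signs turned for 5 named genes that no setting called: 1700016P03Rik (0.0203, weights per library), C4b (-0.0508, both covariates), Fcgr3 (-0.188 to 0.0374 over single libraries) and Fcrls (-0.323 to 0.0123), each turned without cuprizone vehicle 8, and Fcgrt (-0.0722 to 0.0177, turned without naive vehicle 2, and 0.00298 with that library left out and the striatal covariate together). The block ended the calls of Btg2 (adjusted p = 0.0543), Dusp6, Tet3, Trib1, Hivep3, Phf13, Junb, Sntb2, 1810055G02Rik and Nab2, and Arc was not called without the 3 cuprizone vehicle libraries (adjusted p = 0.0737). Naive groups of 4 libraries set the precision of the difference.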

Other observations

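At a mean of at least 10 FPKM the extremes of the difference included 6 genes that were not called. The highest estimates were Ttr (1.91, SE 1.21), Gm9843 (1.51, SE 0.80), Prkcd (1.39, SE 0.55), Zic1 (1.22, SE 0.56) and 1500015O10Rik (1.01, SE 0.64), none of them called (smallest adjusted p 0.434). Prkcd, a protein kinase C of thalamic neurons as well as of myeloid cells, averaged 48.3 ± 54.6 FPKM in naive vehicle libraries (SD, n = 4), with 130 FPKM in naive vehicle 2 and 16.1 to 25.3 FPKM in the other libraries of that group. The lowest estimates were Gm2000 (-1.34, SE 0.37, adjusted p = 0.229) and 4 called genes, Arc, Frmd6, Nr4a1 and Klf10.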
